A study of Mus musculus and Homo sapiens with 180 samples.

Results

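The comparison described here is that of MOLM13 control cells given a Menin inhibitor for 48 h with the same cells given DMSO. Its members are the 6 libraries of the MOLM13 knockout count table whose columns carry the control guide (NT) and either VTP50469 or DMSO, 3 of each, out of 180 samples in the whole series. MOLM13 is a human acute myeloid leukaemia line with a fusion of MLL (KMT2A) and AF9 (MLLT3) and an internal tandem duplication of FLT3. The labels of these samples give the organism as Mus musculus, while the gene identifiers in the table are human Ensembl identifiers.

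Menin is a scaffold that tethers the MLL protein, and MLL fusion proteins, to chromatin. Compounds such as VTP50469 occupy the pocket of Menin that MLL binds, and so displace the complex from its target promoters. In leukaemias with an MLL fusion the best known of these targets are the HOXA genes and their partner MEIS1, homeodomain factors that keep blasts at an immature, self-renewing stage, and loss of this programme is known to release myeloid differentiation.

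All 27 libraries of the knockout experiment came from MOLM13 cells that expressed Cas9 from a lentivirus marked with mCherry and that carried another lentivirus with a guide, selected with puromycin. The control population held a guide aimed at a genomic site meant to be harmless, and the other populations held guides against PCGF1 or BCOR, subunits of the Polycomb complex PRC1.1. These were selected populations of cells, not single clones. The MENi group received 500 nM VTP50469 for 48 h, the DOT1Li group 5 µM SGC0946 for 72 h, and the DMSO group is labelled 72 h, so treatment and labelled time differ together between VTP50469 and DMSO and cannot be told apart. The study calls its RNA-seq replicates of these cells biological, and the labels do not say whether they were separate cultures, so p-values measure the spread between these libraries.

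RNA was counted by 3′ end sequencing, and the 6 libraries held 5127116 to 6027321 reads assigned to genes (4283204 to 6330489 over all 27 libraries). Some widely expressed genes had almost no reads in the 6 libraries (CDK4 2 in DMSO and 3 in VTP50469, the ribosomal protein gene RPL17 1 and 7), so a gene counted at or near 0 here is not shown to be unexpressed. At that depth 3 reads amounted to 0.498 to 0.585 CPM, the reads of a gene per 1000000 reads assigned to genes. DMSO replicate 2 stood apart from its group: 22.7% of its reads were not aligned, against 11.1 to 13.8% in the other 5 libraries, and 303 of 9044 genes at 5 CPM or more (3.35%) differed by more than 1 on the log2 scale from the mean of the other DMSO libraries, against 36 to 98 genes (0.396 to 1.08%) for each of the other 5. AZU1, a neutrophil granule protein, read 59.2, 315 and 61.7 CPM in DMSO replicates 1, 2 and 3. Mitochondrial transcripts took 6.26 to 7.48% of reads in DMSO and 6.86 to 8.48% in VTP50469, and cytosolic ribosomal protein genes 23.0 to 23.5% and 24.0 to 24.8%. Counts of genes in a list are also given without DMSO replicate 2 where they differ.

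Of 12140 genes tested, 994 rose (8.19%) and 1006 fell (8.29%) with VTP50469 at an adjusted p under 0.05 (edgeR quasi-likelihood test on all 27 libraries, Benjamini-Hochberg adjustment over all genes tested). A change of more than 2-fold was seen for 262 of the raised genes (2.16% of genes tested) and 201 of the lowered genes (1.66%). Without DMSO replicate 2 the counts were 926 raised (7.64% of 12115) and 883 lowered (7.29%), and with only the 6 libraries in the fit they were 428 raised (3.87% of 11072) and 279 lowered (2.52%). The list counts below are to be read against the shares of the same fit. The median log2 fold change over all genes was -0.01. In bulk samples a change in the mix of cell states and a change in the RNA of each cell cannot be told apart.

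**Figure D1:**
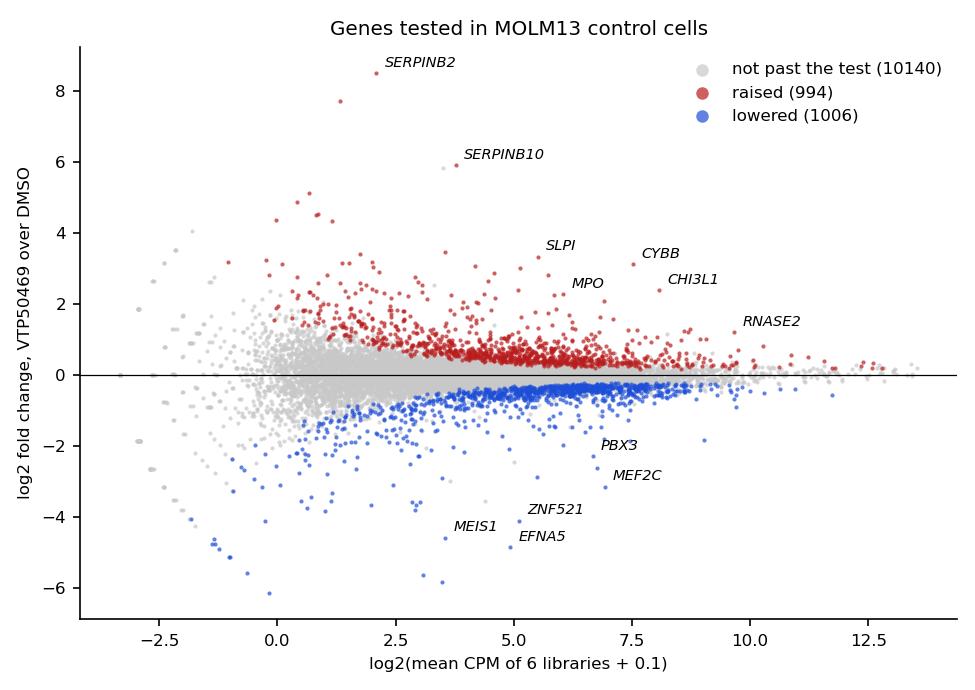
Each point is 1 of the 12140 genes tested; the x axis is the log2 of its mean CPM over the 6 libraries plus 0.1 and the y axis its fitted log2 fold change, VTP50469 over DMSO. Red points (994) rose and blue points (1006) fell past an adjusted p of 0.05, grey points did not pass; EFNA5, MEIS1, ZNF521 and MEF2C lie among the lowest points and SERPINB2, SERPINB10 and SLPI among the highest, and fitted values of genes with reads in only 1 group, such as SERPINB2, depend on the prior count.

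The MLL fusion programme fell in most of its measured members. Of 21 tested genes on a list of MLL fusion targets, 15 fell, 1 rose and 5 did not pass the test (background 8.29% lowered and 8.19% raised among all genes tested), and their median log2 fold change was -0.77, against -0.01 for all genes. The counts were 14 lowered and 1 raised without DMSO replicate 2, and 12 and 1 with the 6 libraries alone. HOXA7 (2 reads in DMSO, 1 in VTP50469) and EYA1 (1 and 2 reads) were too low to be tested.

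MEIS1, the homeobox cofactor of HOXA9, lies on chromosome 2 (GRCh38 chr2:66433452-66573869, plus strand). It was read at 23.2, 24.5 and 19.1 CPM in the 3 DMSO libraries and 0.579, 0.54 and 1.58 CPM in the 3 VTP50469 libraries. The groups did not overlap, and the level fell 23.8-fold (log2 fold change -4.57 with an SE of 0.29, edgeR adjusted p = 2.52e-12). MEF2C, a MADS-box transcription factor of progenitors and a chemoresistance factor in MLL-rearranged leukaemia, went from 209.7, 247 and 196 CPM to 23, 26.1 and 25 CPM. This was an 8.79-fold decrease, and MEF2C shared the smallest adjusted p of all genes with SLPI, a raised gene described below (log2 fold change -3.14 with an SE of 0.10, edgeR adjusted p = 1.36e-18). PBX3, a TALE homeodomain protein that binds DNA together with HOXA9 and MEIS1, went from 185, 132 and 189 CPM to 36.3, 32.6 and 35.7 CPM, a log2 fold change of -2.28 with an SE of 0.12 (edgeR adjusted p = 5.71e-14).

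The promoters of 3 of the most lowered genes are shown, since Menin and MLL act at promoters. Each line gives the 250 bases before the annotated start of the gene's canonical transcript (GENCODE v44, GRCh38), 5′ to 3′ on the gene's strand. Capitals mark matches, on either strand, to 7 motifs searched for: TATAAA, TTGCNNAA (the core recognised by C/EBP factors), GAGGAA (a PU.1-type ETS site), TGACAG (MEIS), TGATTNAT (HOX with PBX), CACGTG (E-box) and CCAAT.
MEIS1, chr2:66434875-66435124, plus strand: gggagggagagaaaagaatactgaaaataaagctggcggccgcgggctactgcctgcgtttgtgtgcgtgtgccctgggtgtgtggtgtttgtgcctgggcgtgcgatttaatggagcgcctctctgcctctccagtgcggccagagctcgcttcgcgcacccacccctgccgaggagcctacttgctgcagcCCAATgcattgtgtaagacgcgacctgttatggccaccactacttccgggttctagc
MEF2C, chr5:88883185-88883434, minus strand: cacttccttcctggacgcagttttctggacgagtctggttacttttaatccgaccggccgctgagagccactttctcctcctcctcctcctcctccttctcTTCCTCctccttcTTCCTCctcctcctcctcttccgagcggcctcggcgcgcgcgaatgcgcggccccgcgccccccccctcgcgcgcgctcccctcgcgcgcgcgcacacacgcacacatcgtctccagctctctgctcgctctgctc
EFNA5, chr5:107670938-107671187, minus strand: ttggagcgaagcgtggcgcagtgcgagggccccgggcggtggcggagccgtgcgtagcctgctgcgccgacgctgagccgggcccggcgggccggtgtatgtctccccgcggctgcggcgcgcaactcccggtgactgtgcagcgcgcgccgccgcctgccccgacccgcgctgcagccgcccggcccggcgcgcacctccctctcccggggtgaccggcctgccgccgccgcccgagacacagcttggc
These windows hold 16, 28 and 41 CG dinucleotides. The MEIS1 window has a CCAAT match at position -57 from the start, the MEF2C window has GAGGAA matches at -149 and -136 on the opposite strand, and none of the 7 motifs was matched in the EFNA5 window.

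HOXA9, the homeodomain factor at the centre of this programme, read 96.6, 97.6 and 82.3 CPM in DMSO and 53.1, 52.8 and 56 CPM in VTP50469, without overlap. Its log2 fold change of -0.77 with an SE of 0.11 (edgeR adjusted p = 6.36e-06) was a smaller decrease than that of MEIS1 and equalled the median of the target list. Against a background of 8.29% lowered, 5 of the 7 tested genes of the HOXA cluster fell and none rose (3 with the 6 libraries alone). The 5 were HOXA3, HOXA5, HOXA9, HOXA10 and HOXA11, with log2 fold changes of -1.49, -1.90, -0.77, -0.68 and -1.30. HOXA13, at the end of the cluster, read 6.2, 7.82 and 6.04 CPM in DMSO and 5.02, 7.03 and 7.53 CPM in VTP50469, and the groups overlapped (log2 fold change -0.02). Of the 7 tested TALE genes (MEIS, PBX, PKNOX and TGIF), MEIS1 and PBX3 fell and none rose, and the median log2 fold change of the family was -0.00.

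The other lowered targets ranged more widely in size. CDK6, a G1 cyclin-dependent kinase, read 228, 255 and 237 CPM in DMSO and 105, 101 and 97.7 CPM in VTP50469 (log2 fold change -1.25 with an SE of 0.09, edgeR adjusted p = 1.09e-10). FLT3, the receptor tyrosine kinase whose mutant form this line carries, read 98.9, 93.8 and 113 CPM and 60.8, 54.2 and 54.6 CPM (log2 fold change -0.85 with an SE of 0.09, edgeR adjusted p = 7.98e-08). BCL2, the antiapoptotic protein targeted by venetoclax, read 76.2, 73.2 and 77.4 CPM and 43.6, 41.8 and 42.9 CPM (log2 fold change -0.82 with an SE of 0.09, edgeR adjusted p = 6.51e-08). In each of these 3 genes all VTP50469 libraries lay below all DMSO libraries.

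IGF2BP2, an RNA-binding protein, and JMJD1C, a Jumonji-domain protein, fell (log2 fold changes of -1.46 and -1.42), as did CPEB2, a regulator of translation (-2.27), and SENP6, a SUMO protease (-0.71). RUNX2, which encodes a Runt-family transcription factor, and TAPT1 fell (-0.50 and -0.54) and were the least certain calls among the targets (edgeR adjusted p = 0.0243 and 0.025). TAPT1 lost its call without DMSO replicate 2 (edgeR adjusted p = 0.110), without VTP50469 replicate 1 or 2 (0.0978 and 0.0658) and with the 6 libraries alone (0.101). RUNX2 lost it without VTP50469 replicate 1 or 3 (0.0813 and 0.147), without DMSO replicate 1 (0.0567) and with the 6 libraries alone (0.0774), where HOXA10 also lost it (0.0868).

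RUNX1, a Runt-family master regulator of haematopoiesis, was the one target that rose. It read 55.6, 54.1 and 61.9 CPM in DMSO and 84, 73.9 and 92.2 CPM in VTP50469 (log2 fold change 0.54 with an SE of 0.11, edgeR adjusted p = 0.000891). MYB, a transcription factor that leukaemic blasts depend on, read 405, 526 and 411 CPM and 414, 432 and 439.7 CPM, and the groups overlapped (log2 fold change -0.06 with an SE of 0.08, edgeR adjusted p = 0.654). ZEB2, RNF220 and LAMP5 did not pass the test either, with log2 fold changes of -0.10, -0.02 and -0.13.

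**Figure D2:**
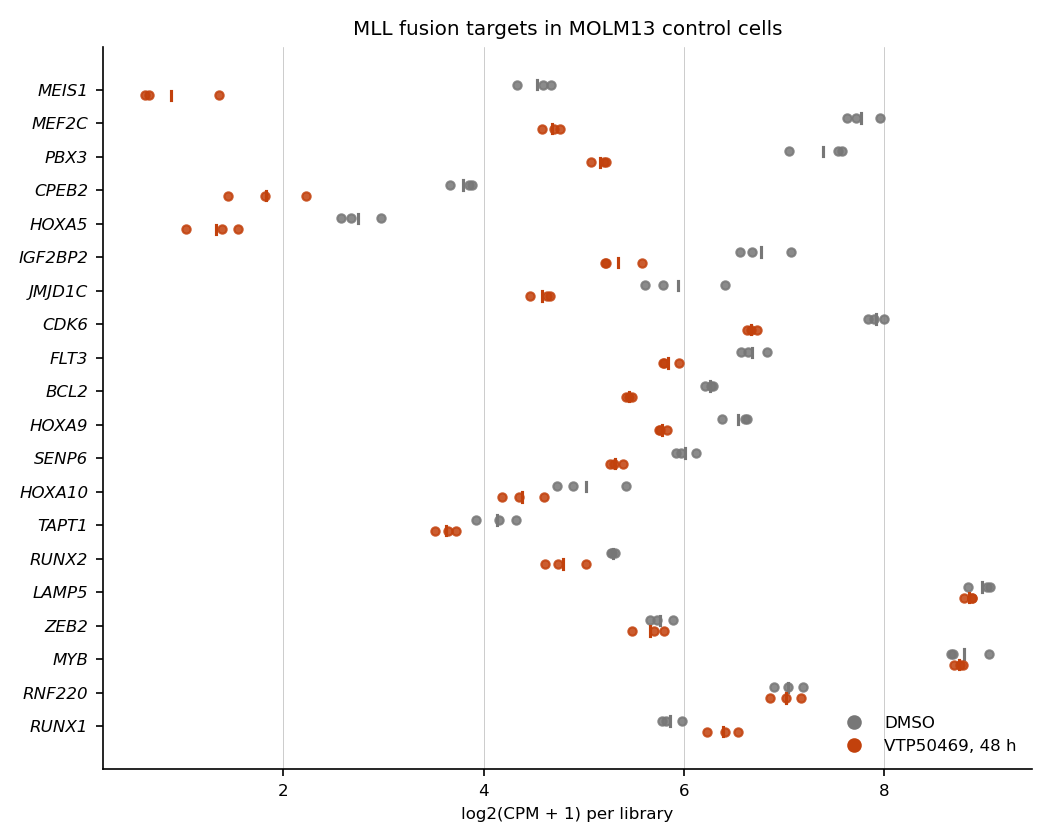
The x axis is the log2 of CPM plus 1 in each library for 20 of the 21 tested MLL fusion targets, with grey points for the 3 DMSO libraries, orange points for the 3 VTP50469 libraries and a short bar at each group's mean. From MEIS1 at the top to RUNX1 at the bottom, 15 genes show orange points below all grey ones, while MYB, ZEB2, LAMP5 and RNF220 overlap. Among all 12140 genes tested, 13.8% had every VTP50469 library below every DMSO library.

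Another list, of target genes that the study followed in mouse MLL-AF9 cells, had 7 of 16 tested members lowered and 1 raised (7 and 0 without DMSO replicate 2), against a background of 8.29% and 8.19%, with a median of -0.31. MEIS1, JMJD1C, HOXA9 and HOXA11 are shared with the lists above, and the others were EMB, FOXP1 and ITGB5 at -1.14, -0.80 and -0.65. For the genes that encode the targeted complexes no change passed the test. None of 8 tested subunits of the Menin and MLL complexes, none of 12 DOT1L and elongation complex genes and none of 10 PRC1.1 subunits passed the edgeR test, and none did so with DESeq2. At an unadjusted p under 0.05 the counts were 1 raised in the first, 1 raised and 2 lowered in the second, and 1 raised and 3 lowered in the third. Without DMSO replicate 2 the elongation factor ELL2 passed, in the raised direction. MEN1, which encodes Menin, read 82.6, 67.2 and 81.7 CPM in DMSO and 75.3, 65.2 and 85.6 CPM in VTP50469, and KMT2A read 49.8, 87.2 and 45.1 CPM and 56.4, 58.9 and 54.8 CPM, with DMSO replicate 2 the highest. Reads of KMT2A and MLLT3 cannot be split between the normal and the fused allele in these counts.

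Among all genes, the lowest ratios belonged to a small set that lost most of its signal. EFNA5, an ephrin ligand, read 54.6, 77.2 and 43.5 CPM in DMSO and 1.74, 2.34 and 1.93 CPM in VTP50469, a 28.7-fold decrease (log2 fold change -4.84 with an SE of 0.23, edgeR adjusted p = 4.01e-15). ZNF521, a zinc finger cofactor of haematopoietic progenitors, read 58.8, 79.2 and 56.5 CPM and 3.28, 3.24 and 4.73 CPM, a 17.1-fold decrease (log2 fold change -4.10 with an SE of 0.18, edgeR adjusted p = 6.23e-16). In both genes the highest DMSO value was that of replicate 2, and every VTP50469 library lay below every DMSO library.

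TMEM255A, SKIDA1, MYO6, CDK6-AS1, MIR1915HG and PDGFA, which encodes a platelet-derived growth factor chain, had log2 fold changes of -3.80, -3.64, -3.64, -3.58, -3.56 and -3.09, from DMSO means of 7.17 to 14.8 CPM. SKIDA1 (chr10:21513475-21526368) and the non-coding MIR1915HG (chr10:21490272-21497260) lie near each other on the minus strand of chromosome 10. CDK6-AS1 (chr7:92836367-92917188, plus strand) overlaps the start of CDK6 (chr7:92604921-92836573, minus strand), and since the strandedness of the counting is not given in the sources used here, reads where they overlap cannot be assigned to one or the other.

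Several regulators of higher level fell as clearly. SHOX2, a homeobox gene, read 179.7, 229 and 153 CPM in DMSO and 32.8, 31.5 and 28.2 CPM in VTP50469 (log2 fold change -2.60 with an SE of 0.18, edgeR adjusted p = 1.37e-11). SATB1, a chromatin organiser, read 169, 216 and 174 CPM and 48.6, 56.7 and 55 CPM (log2 fold change -1.80 with an SE of 0.10, edgeR adjusted p = 5.93e-14). BMI1, the PRC1 subunit PCGF4 and a self-renewal factor of stem cells, read 122, 161 and 128 CPM and 42.7, 48.3 and 43.9 CPM, 3.04-fold lower (log2 fold change -1.60 with an SE of 0.10, edgeR adjusted p = 1.22e-12). SOCS2, a suppressor of cytokine signalling, and CNOT6L, a deadenylase, fell too (-2.90 and -1.96).

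Genes of the myeloid granules rose in most of the members that could be tested. Of 13 tested genes of the primary granules, which promyelocytes make first, 8 rose and none fell (background 8.19%), with a median log2 fold change of 0.48. The same 8 raised was the count with the 6 libraries alone, and 10 rose without DMSO replicate 2, when AZU1 (log2 fold change 1.06, edgeR adjusted p = 0.00934) and ELANE, neutrophil elastase (0.61, edgeR adjusted p = 0.00508), passed as well. Of 25 genes of the later granules and mature neutrophils, 8 were expressed highly enough to be tested and all 8 rose. A gene that is near 0 in DMSO enters such a list only if it is high with VTP50469, so this count is given as a description. Among the other 17, LTF and LCN2, which define the secondary granules, had no read in any of the 6 libraries, and CAMP, which encodes cathelicidin, had 1 read in DMSO and 24 in VTP50469.

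MPO, myeloperoxidase, the hallmark enzyme of the primary granule, read 22, 22.5 and 22.4 CPM in DMSO and 102, 103 and 122 CPM in VTP50469. The groups were far apart relative to their spread (log2 fold change 2.29 with an SE of 0.11, edgeR adjusted p = 1.41e-14). MS4A3, a membrane protein of granulocyte-monocyte progenitors, read 46.8, 43.5 and 45.1 CPM and 174, 205 and 204 CPM (log2 fold change 2.11 with an SE of 0.13, edgeR adjusted p = 9.29e-13). RNASE2, the eosinophil-derived neurotoxin, read 524, 431 and 509 CPM and 1149, 1112 and 1130.1 CPM (log2 fold change 1.21 with an SE of 0.07, edgeR adjusted p = 8.22e-14). It has a close paralog in RNASE3, which rose by 1.5, and reads common to both could have been set aside in the counting.

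BPI, the bactericidal permeability-increasing protein, read 3.54, 0.802 and 1.31 CPM in DMSO and 21.2, 23.4 and 19.1 CPM in VTP50469 (log2 fold change 3.46 with an SE of 0.28, edgeR adjusted p = 4.64e-10). LYZ, lysozyme, rose by 2.61 and read 4.82, 6.48 and 5.43 CPM in VTP50469. In a separate MOLM13 experiment of 96 h, LYZ averaged 733 CPM in DMSO and 2510 CPM with VTP50469. LYZ was thus read at a far higher level in other libraries of the line, and the cause of this difference was not tested. CTSG, cathepsin G, and SRGN, the granule proteoglycan serglycin, rose by 0.48 and 0.41. PRTN3, proteinase 3, did not pass the test (log2 fold change 0.00), with 922, 1377 and 745 CPM in DMSO and 1103, 875 and 1065 CPM in VTP50469.

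SLPI, a secreted inhibitor of neutrophil elastase, read 8.51, 7.02 and 8.66 CPM in DMSO and 78, 83.4 and 86.3 CPM in VTP50469, a 10.2-fold increase (log2 fold change 3.35 with an SE of 0.11, edgeR adjusted p = 1.36e-18). CHI3L1, a chitinase-like glycoprotein of specific granules, read 79.6, 96.4 and 81.7 CPM and 418, 457 and 476 CPM (log2 fold change 2.39 with an SE of 0.10, edgeR adjusted p = 1.62e-16). The receptor for G-CSF, CSF3R, read 69.1, 53.3 and 57.7 CPM and 133, 122 and 116 CPM (log2 fold change 1.04 with an SE of 0.11, edgeR adjusted p = 4.56e-08). CXCR2, a chemokine receptor of neutrophils, rose by 0.81 and MMP25, a membrane-bound matrix metalloproteinase, by 1.64. S100A8 and S100A9, the subunits of calprotectin, and MMP9, gelatinase B, had 3, 1 and 1 reads over the DMSO libraries and 67, 48 and 40 reads over the VTP50469 libraries, and no fold is given for them.

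The phagocyte NADPH oxidase makes superoxide in neutrophils and monocytes. Its 4 tested subunits all rose (3 with the 6 libraries alone), against a background of 8.19% of genes raised, with a median of 1.46. NCF1 (2 reads in DMSO, 13 in VTP50469) and RAC2 (2 and 11 reads) were too low to test. CYBB, the catalytic subunit gp91phox, lies on the X chromosome (chrX:37780018-37813461, plus strand) and read 36.5, 46.3 and 30.2 CPM in DMSO and 343, 331 and 318 CPM in VTP50469. This was an 8.81-fold increase (log2 fold change 3.14 with an SE of 0.11, edgeR adjusted p = 1.5e-17). CYBA (p22phox) and NCF4 (p40phox) rose by 0.61 and 0.35.

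**Figure D3:**
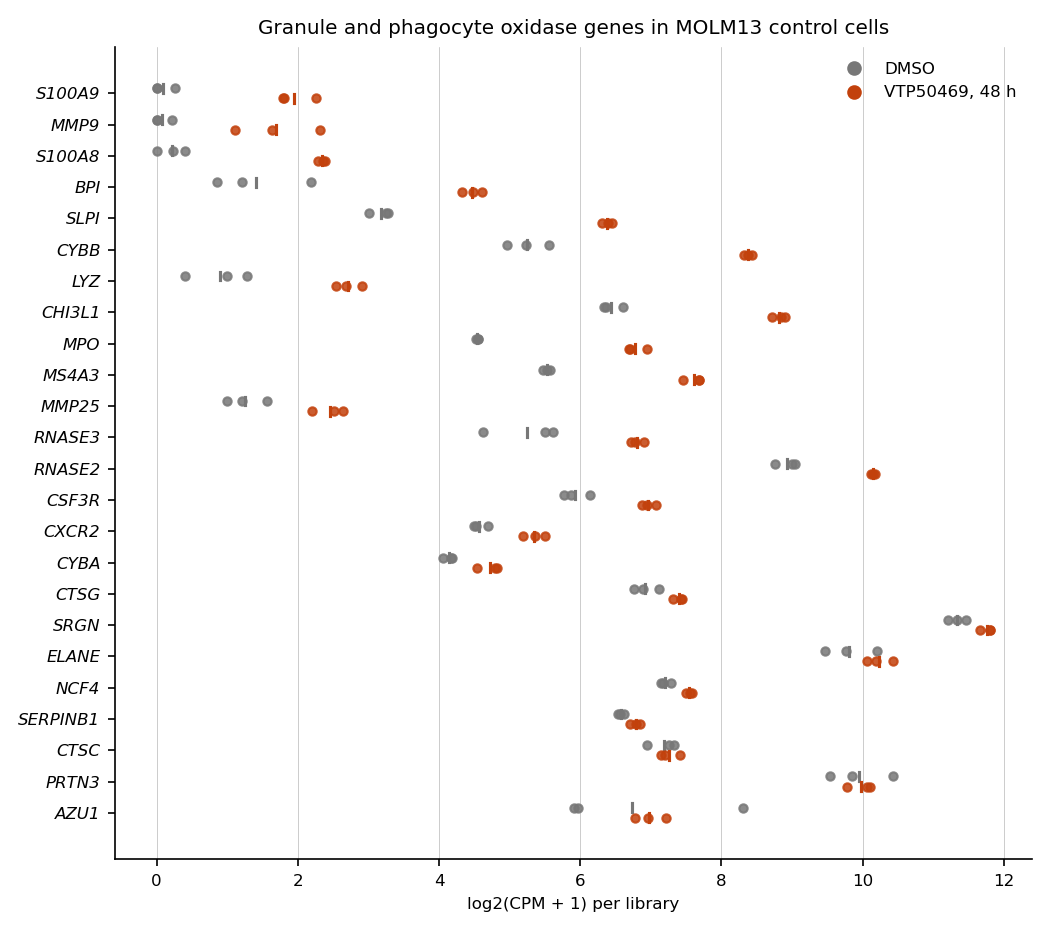
The x axis is the log2 of CPM plus 1 in each library for 24 of the 25 tested genes of the primary granule, later granule and phagocyte oxidase lists, ordered by fitted fold change; grey points are the 3 DMSO libraries, orange points the 3 VTP50469 libraries and short bars the group means. From S100A9 to CTSG and SRGN the orange points lie to the right of the grey ones, whereas ELANE, CTSC, PRTN3 and AZU1 overlap and SERPINB1 did not pass the test, with 1 DMSO library of AZU1 (replicate 2) far to the right.

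The promoters of CYBB and CHI3L1, among the most clearly raised of these granule and oxidase genes, are shown for comparison with those of the lowered genes, in the same form and with the same 7 motifs in capitals.
CYBB, chrX:37779809-37780058, plus strand: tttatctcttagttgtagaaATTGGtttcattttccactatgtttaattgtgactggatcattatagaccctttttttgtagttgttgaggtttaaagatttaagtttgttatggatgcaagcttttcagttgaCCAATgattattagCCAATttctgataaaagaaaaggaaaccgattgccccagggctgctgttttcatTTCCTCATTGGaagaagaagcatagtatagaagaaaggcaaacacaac
CHI3L1, chr1:203186705-203186954, minus strand: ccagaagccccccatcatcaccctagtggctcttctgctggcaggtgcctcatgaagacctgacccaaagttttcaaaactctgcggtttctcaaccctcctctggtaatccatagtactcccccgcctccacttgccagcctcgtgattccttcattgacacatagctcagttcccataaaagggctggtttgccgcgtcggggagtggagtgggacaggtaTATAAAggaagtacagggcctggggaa
These windows hold 1 and 6 CG dinucleotides, against 16 to 41 in the MEIS1, MEF2C and EFNA5 windows above. CYBB has a GAGGAA match at -48 and CCAAT matches at -230, -116, -102 and -42, the last of which directly follows the GAGGAA match. CHI3L1 has TATAAA at -27.

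Promoters of all changed genes were compared in the same way. A 250-base promoter was available for 11834 of the 12140 tested genes, 971 of them raised and 993 lowered. Promoters with fewer than 5 CG dinucleotides made up 16.6% of those of raised genes, 4.13% of those of lowered genes and 9.63% of all (95% Wilson intervals 14.4 to 19.1%, 3.06 to 5.55% and 9.11 to 10.2%, which cover counting error only). Among genes changed more than 2-fold the shares were 33.6% of 253 raised and 11.3% of 194 lowered, and the median number of CG dinucleotides was 8 in the former and 23 in the latter, against 21 over all promoters.

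The motif shares differed less. TATAAA was in 7.62% of raised, 7.25% of lowered and 6.18% of all promoters, and in 13.4% and 10.8% of those changed more than 2-fold. TTGCNNAA was in 7.52%, 5.44% and 6.34%, GAGGAA in 28.3%, 23.6% and 22.5%, and TGACAG in 12.2%, 7.86% and 10.4%. The HOX with PBX sequence TGATTNAT was in 1.13%, 1.01% and 1.13%, CACGTG in 9.27%, 11.3% and 8.81%, and CCAAT in 33.4%, 32.5% and 34.8%. These shares are descriptions with no test, and a match is not a bound site.

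The remaining genes of largest increase, chosen by fold change alone, had varied roles. SERPINB10 (chr18:63907958-63936111), a serpin of bone marrow cells, read 0.709, 0.401 and 0.163 CPM in DMSO and 24.7, 30.1 and 25.7 CPM in VTP50469 (log2 fold change 5.93 with an SE of 0.36, edgeR adjusted p = 1.37e-12). The neighbouring SERPINB2 (chr18:63871692-63903888), the plasminogen activator inhibitor of activated monocytes, had no read in DMSO and 139 in VTP50469, so it was at least 46.4-fold higher (against 3 reads over the DMSO group). CLEC12A, an inhibitory lectin receptor of myeloid cells, read 5.67, 2.61 and 3.1 CPM and 35.3, 31 and 31.2 CPM (log2 fold change 3.08 with an SE of 0.22, edgeR adjusted p = 5.3e-11).

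GAPT, PRAM1, an adaptor protein of myeloid cells, and PDE4B, a cyclic AMP phosphodiesterase, rose by 3.03, 2.40 and 3.04. PITX1, a homeobox gene, and ORM1, an acute phase glycoprotein, rose by 3.42 and 3.18 from DMSO means of 0.532 and 0.725 CPM, and ORM1 has a near-identical copy, ORM2, with which it can share reads. ANKRD22 had no read in DMSO and 80 in VTP50469 and was at least 26.7-fold higher.

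Monocyte genes rose in part. Of 18 tested members of a list of 28 monocyte and macrophage genes, 10 rose and 1 fell (11 and 2 without DMSO replicate 2, 7 and 1 with the 6 libraries alone), with a median of 0.44. Among all genes tested, 8.19% rose and 8.29% fell. MNDA, a nuclear antigen of myeloid cells, read 24.1, 11.4 and 23.5 CPM in DMSO and 90.9, 104 and 90.1 CPM in VTP50469 (log2 fold change 2.26 with an SE of 0.16, edgeR adjusted p = 4.18e-11). AIF1, the actin-binding protein IBA1, read 226, 256 and 249 CPM and 566, 605 and 642 CPM (log2 fold change 1.31 with an SE of 0.08, edgeR adjusted p = 3.05e-12). CD36, a scavenger receptor, and CSF1R, the receptor for M-CSF, rose by 2.92 and 0.90, and the chemokine receptors CX3CR1 and CCR2 by 1.43 and 0.96.

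The member that fell was IRF8, the transcription factor of the monocyte and dendritic cell lineages, with 232, 143 and 248 CPM in DMSO and 127, 112 and 114 CPM in VTP50469 (log2 fold change -0.83 with an SE of 0.16, edgeR adjusted p = 0.000426). Several markers of mature monocytes and macrophages were counted at or near 0 in both groups: CD14 had 3 reads in DMSO and 6 in VTP50469, VCAN 1 and 0, and FCN1, CD163 and MRC1 none, while MARCO had 19 and 29. Of 13 integrin and adhesion genes, 7 rose and none fell (background 8.19% raised; 5 and 0 with the 6 libraries alone). ITGB2, the common β2 integrin chain, read 927, 803 and 967 CPM and 1621, 1515 and 1606 CPM (log2 fold change 0.81 with an SE of 0.08, edgeR adjusted p = 4.01e-08), and its partners ITGAX (CD11c) and ITGAM (CD11b) rose by 1.31 and 1.46.

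Among 36 tested myeloid transcription factors, 8 rose and 5 fell (7 and 5 without DMSO replicate 2, 5 and 2 with the 6 libraries alone), and the median was 0.03. The background was 8.19% raised and 8.29% lowered. CEBPE, the C/EBP factor of terminal granulocyte maturation, read 1.24, 1.6 and 2.78 CPM in DMSO and 12.4, 11.7 and 14.9 CPM in VTP50469 (log2 fold change 2.76 with an SE of 0.26, edgeR adjusted p = 6.68e-09). CEBPD and CEBPB rose by 1.29 and 0.96, and NFE2, a basic leucine zipper factor of myeloid and erythroid cells, by 1.65. GFI1, a repressor required for neutrophil formation, rose by 0.28 and lost its call without DMSO replicate 2 (edgeR adjusted p = 0.0623). RUNX3 and MYC fell (-0.62 and -0.49), and the libraries of MYC overlapped. SPI1, which encodes PU.1, read 39.7, 30.1 and 30.4 CPM and 33.6, 34 and 45.7 CPM (log2 fold change 0.18 with an SE of 0.15, edgeR adjusted p = 0.48), and CEBPA had no read in the 6 libraries.

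Markers of stem cells gave little to measure. Only 5 of 21 listed genes were tested, of which LMO2 rose by 0.44, a call lost without DMSO replicate 2 (edgeR adjusted p = 0.148), and CD34, MECOM and ERG had no read in the 6 libraries. Of 8 tested genes of the 17-gene leukaemia stemness set, 2 fell (CDK6 and SOCS2, both described above) and 1 rose (DPYSL3, from 1.24, 1.4 and 1.63 CPM to 3.28, 7.03 and 4.9 CPM). Of the IGF2BP and LIN28B group 1 gene was tested, IGF2BP2, which is the lowered gene given above. LIN28B and HMGA2 had no read.

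Of 27 tested proliferation genes 2 rose and 2 fell (4 and 1 without DMSO replicate 2), shares near the background of 8.19% raised and 8.29% lowered. The median was 0.09, and with the 6 libraries alone none passed in either direction (at an unadjusted p under 0.05 in the fit of all 27 libraries, 5 rose and 3 fell, and DESeq2 called 2 raised and 1 lowered). MKI67, the Ki-67 antigen, read 191, 258 and 183 CPM in DMSO and 226, 255 and 223 CPM in VTP50469, and passed the test only without DMSO replicate 2 (log2 fold change 0.33, edgeR adjusted p = 0.0170), in the raised direction. Of the genes of G1 control, 5 of 15 fell and 1 rose (4 and 0 without DMSO replicate 2, 3 and 0 with the 6 libraries alone). Besides CDK6, CCND2, cyclin D2, fell from 23.2, 22.5 and 28.7 CPM to 9.07, 10.1 and 11.7 CPM (log2 fold change -1.27 with an SE of 0.11, edgeR adjusted p = 1.34e-09). CDKN2C, the CDK4 and CDK6 inhibitor p18, fell from 146, 129.9 and 156 CPM to 45.2, 51.5 and 62 CPM (log2 fold change -1.45 with an SE of 0.12, edgeR adjusted p = 1.05e-09). CDKN1C (p57) went from 15 reads to 2, and CDKN1A (p21) fell by 0.30, a call lost without DMSO replicate 2 (edgeR adjusted p = 0.231).

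Of 15 BCL2 family genes, 3 rose and 2 fell (background 8.19% and 8.29%). BCL2A1, an antiapoptotic member, and BMF and BIK, proapoptotic members, rose by 1.04, 1.06 and 0.47, while BCL2 and BID fell (-0.82 and -0.31). MCL1 did not pass the test (log2 fold change -0.08). Of 22 cytokine receptor signalling genes, 4 rose and 3 fell against the same background (2 and 4 without DMSO replicate 2), among them DUSP6, a phosphatase induced by ERK activity, which rose from 39.3, 49.9 and 43.6 CPM to 113, 94.9 and 66.7 CPM (log2 fold change 1.05 with an SE of 0.17, edgeR adjusted p = 7.41e-05).

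Of 12 tested genes of the MHC class I antigen presentation pathway, 8 rose, none fell and 4 did not pass the test (background 8.19% raised; 9 and 0 without DMSO replicate 2, 7 and 0 with the 6 libraries alone), with a median of 0.54. Class I heavy chain genes share sequence, and their reads can be split or lost in counting. B2M, the common light chain, read 1369, 1595 and 1491 CPM and 2044, 2119 and 2518 CPM (log2 fold change 0.58 with an SE of 0.11, edgeR adjusted p = 0.000448). NLRC5, the transactivator of class I genes, read 34.6, 30.9 and 41.5 CPM and 68.9, 63.4 and 67.7 CPM (log2 fold change 0.90 with an SE of 0.10, edgeR adjusted p = 2.06e-07). Of 4 tested class II genes none passed the edgeR test or DESeq2, and 1 was higher at an unadjusted p under 0.05.

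Lysosomal genes rose in number: 20 of 37 rose and none fell (20 and 1 without DMSO replicate 2, 11 and 0 with the 6 libraries alone), with a median of 0.39. The background among all genes tested was 8.19% raised and 8.29% lowered. GRN, progranulin, read 254, 197 and 283 CPM in DMSO and 669, 519 and 537 CPM in VTP50469 (log2 fold change 1.23 with an SE of 0.19, edgeR adjusted p = 2.79e-05). PSAP, the precursor of the saposins, read 249, 160.0 and 250.3 CPM and 392, 347 and 373 CPM (log2 fold change 0.75 with an SE of 0.13, edgeR adjusted p = 0.000117). ASAH1, acid ceramidase, CTSD, cathepsin D, and PPT1, palmitoyl-protein thioesterase, rose by 0.82, 0.76 and 1.0.

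Of 18 tested genes of the amino acid response driven by ATF4, 10 fell, 1 rose and 7 did not pass the test (background 8.29% lowered and 8.19% raised; 10 and 1 without DMSO replicate 2, 4 and 0 with the 6 libraries alone), with a median of -0.49. PSAT1, an enzyme of serine synthesis, read 216, 155 and 224 CPM in DMSO and 86.1, 92.2 and 97.1 CPM in VTP50469 (log2 fold change -1.11 with an SE of 0.10, edgeR adjusted p = 3.88e-09). ASNS, asparagine synthetase, read 109, 123 and 105 CPM and 51.5, 47.2 and 57.6 CPM (log2 fold change -1.11 with an SE of 0.12, edgeR adjusted p = 4.91e-08). The amino acid transporter SLC7A5 and ATF4 itself fell (-1.0 and -0.43), and the cystine transporter SLC7A11 was the gene that rose, by 0.41. Of 11 heat shock and immediate early genes 4 fell and none rose, the 4 being the chaperones HSPH1, HSP90AA1, HSPB1 and HSPA8 (-0.71, -0.55, -0.56 and -0.29).

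The background for the counts that follow is 8.19% raised and 8.29% lowered. Of 12 tested interferon response genes 3 rose (IFI6, MX2 and BST2, by 2.08, 0.87 and 0.83) and none fell, and of 11 inflammatory mediators 4 rose and none fell, among them CXCL8, which was 58.5, 34.7 and 72.2 CPM in DMSO and 251, 192 and 73 CPM in VTP50469, with replicate 3 close to the DMSO level. Of 20 cholesterol synthesis genes 2 fell, a share near the background, and none rose, and none passed with the 6 libraries alone. Of 73 cytosolic ribosomal protein genes 9 rose (12.3% of them, against 8.19% of all genes) and none fell (12 and 0 without DMSO replicate 2), with a median of 0.09, and none passed with the 6 libraries alone. None of the 13 mitochondrially encoded genes passed the edgeR test or DESeq2, and 2 were higher at an unadjusted p under 0.05 (1 passed without DMSO replicate 2).

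**Figure D4:**
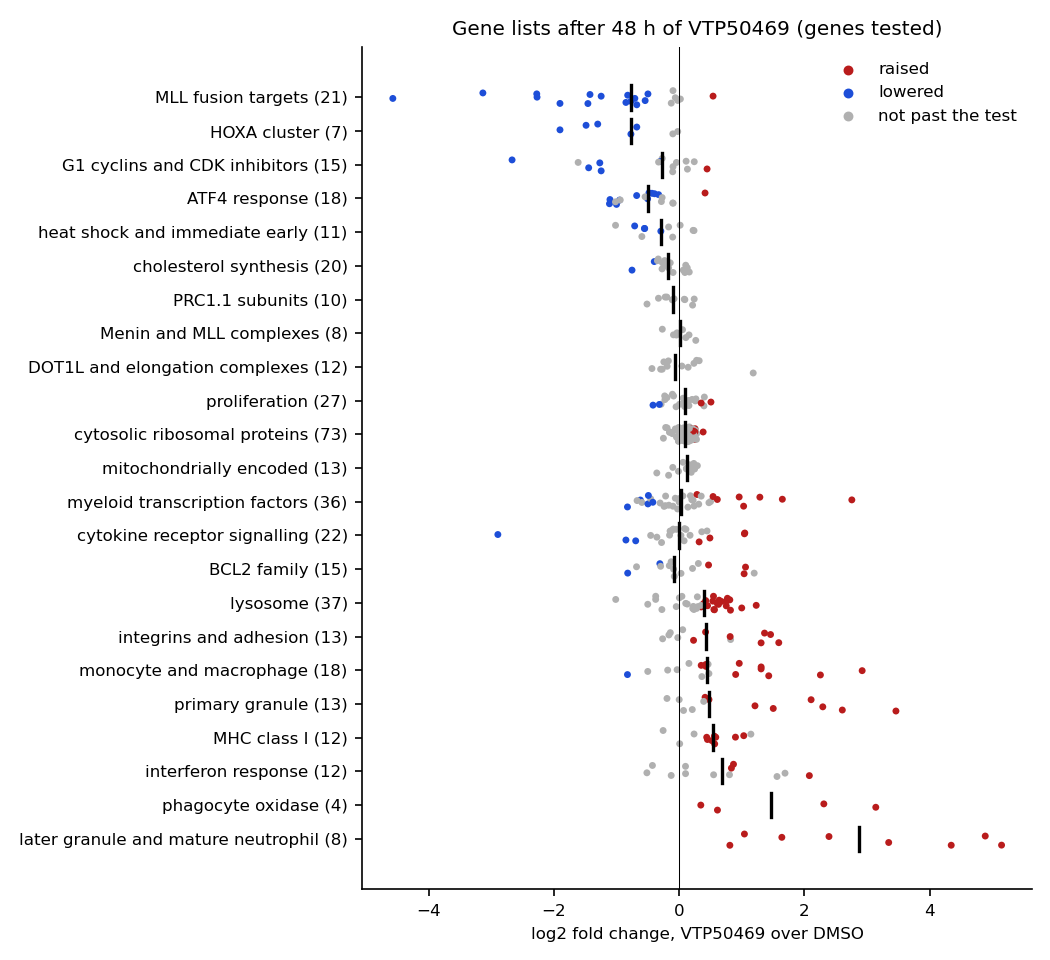
Each point is a tested gene of the list named on the left (number of tested genes in brackets), placed by its fitted log2 fold change, VTP50469 over DMSO, and coloured red where it rose, blue where it fell and grey where it did not pass the test; black bars mark list medians. The median bar of the MLL fusion targets lies at -0.77 and that of the ATF4 response at -0.49, the proliferation genes centre on 0.09, and the later granule and phagocyte oxidase lists lie at 2.87 and 1.46, where genes with 3 or fewer reads in DMSO have fitted values that depend on the prior count.

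The markers of the line were present in both groups. All 12 genes of a line identity list were detected, among them CD33 at 60.6, 49.3 and 57 CPM in DMSO and 62.9, 64.8 and 59 CPM in VTP50469, and 4 of the 12 rose and 3 fell, each of which is described above. Of markers of other blood cells, 1 of 11 erythroid, 2 of 11 lymphoid and none of 5 megakaryocyte genes were expressed highly enough to be tested. Summed over the tested genes, erythroid markers (EPOR alone) were 4.79 to 7.51 CPM in DMSO and 7.14 to 11.2 CPM in VTP50469, and lymphoid markers 2.84 to 6.70 and 8.05 to 10.04 CPM, where CD3D rose by 0.83. Haemoglobin genes and CD3E were below the filter.

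The same control cells were also given SGC0946, an inhibitor of the H3K79 methyltransferase DOT1L, so that the response to MENi could be set beside that to DOT1Li. Dose and time differed (500 nM for 48 h and 5 µM for 72 h) and cannot be told apart from the compound. In the direct contrast of the VTP50469 with the SGC0946 libraries, which needs no DMSO library, 171 of 12140 genes differed (1.41%), 47 of them higher with VTP50469 (0.387%) and 124 lower (1.02%). The total was 109 to 129 when any 1 of the 6 libraries was left out.

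Of the 50 genes named by rule for the VTP50469 response, 9 were lower and 5 higher with VTP50469 than with SGC0946. Many of the 50 were picked for a large or clear change in these same VTP50469 libraries. The choice therefore favours larger effects with VTP50469, and these counts are a description. MEIS1 had a mean of 0.898 ± 0.587 CPM with VTP50469 and 4.27 ± 1.23 CPM with SGC0946 (SD, n = 3 each; log2 difference -2.20, edgeR adjusted p = 0.000682). MEF2C was 24.7 ± 1.6 CPM with VTP50469 and 52.1 CPM with SGC0946 (log2 difference -1.08), and PBX3 34.9 ± 1.98 and 77.2 CPM (log2 difference -1.15). ZNF521, EFNA5, MYO6, SKIDA1, TMEM255A and PDGFA were likewise lower with VTP50469 (log2 differences of -2.37, -1.82, -2.34, -1.67, -1.96 and -1.67).

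HOXA9 went the other way. It was 54 ± 1.79 CPM with VTP50469 and 35.0 CPM with SGC0946 (log2 difference 0.62, edgeR adjusted p = 0.00182), so that the gene fell with both compounds but by less with VTP50469. HOXA13 was also higher with VTP50469 (log2 difference 1.15, edgeR adjusted p = 0.0162), with a log2 fold change against DMSO of -0.02 for VTP50469 and -1.18 for SGC0946. RNASE2, CYBB, AIF1 and BPI were higher with VTP50469 by 0.41, 0.45, 0.36 and 0.85.

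CCND2 stood out among the G1 genes: its log2 fold change against DMSO was -1.27 with VTP50469 and 0.42 with SGC0946, a difference of -1.69 (edgeR adjusted p = 5.41e-11). CDKN2C and RUNX3 were lower with VTP50469 as well (-0.72 and -0.74). For other lowered targets no difference passed the test: CDK6 differed by -0.17 (SE 0.10), FLT3 by -0.09 (SE 0.09), BCL2 by -0.09 (SE 0.09) and BMI1 by -0.14 (SE 0.10). The same was true of SLPI (0.13, SE 0.09) and MPO (0.09, SE 0.10). CCND2, HOXA13, CDKN2C and RUNX3 are members of the gene lists and not of the 50.

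The response of the control cells was also set against that of cells with a PCGF1 or BCOR guide, by an interaction term. Of 12140 genes 47 (0.387%) responded differently in PCGF1 cells and 11 (0.0906%) in BCOR cells, and of the 50 named genes 7 and 5 did. MEF2C was among both, with log2 fold changes of -3.14 in control, -2.21 in PCGF1 and -2.09 in BCOR cells (interaction edgeR adjusted p = 0.000511 and 0.000142). SLPI was the other (3.35, 1.88 and 2.22). MEIS1 did not pass in either. Its log2 fold changes were -4.57 in control, -2.94 in PCGF1 and -2.83 in BCOR cells (interaction edgeR adjusted p = 0.0916 and 0.107). The interaction uses the same 6 control libraries as the comparison above.

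Other comparisons of VTP50469 with DMSO in control cells come from separate libraries, at the same dose. In a MOLM13 washout experiment, 96 h of drug raised 1221 of 12741 genes (9.58%) and lowered 1858 (14.6%). In MV4;11, a leukaemia line with an MLL-AF4 fusion, 48 h of drug raised 1190 of 11252 genes (10.6%) and lowered 1174 (10.4%). Scaling by library size instead of TMM shifted the median of all genes from 0.03 to 0.57 at 96 h and from 0.01 to -0.41 in MV4;11, and the split became 2318 raised and 820 lowered, and 451 raised and 4009 lowered. The changes below are relative to the TMM scaling.

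Of the 868 genes raised at 48 h in MOLM13 that were also tested at 96 h, 222 rose there and 31 fell. The share that rose was 25.6%, against 9.37% of all genes tested in both. Of 902 lowered genes, 408 fell (45.2%, against 17.8% of all genes tested in both) and 16 rose. The shared genes made up 23.8% of the genes raised and 23.0% of those lowered at 96 h, among genes tested in both. In MV4;11 332 of 899 raised genes rose (36.9%, against 9.88% of all genes tested in both) and 36 fell. There 322 of 891 lowered genes fell (36.1%, against 11.0%) and 26 rose. The shared genes made up 32.5% of the genes raised and 28.4% of those lowered in MV4;11, among genes tested in both. Of the 994 genes raised and 1006 lowered at 48 h in MOLM13, 115 rose and 162 fell in all 3 experiments. Not all of these genes were tested in each experiment.

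The 96 h comparison carries its own doubts. Its DMSO libraries held 21732246 to 40250935 gene reads and its VTP50469 libraries 1918125 to 7013144. Haemoglobin transcripts were present in the VTP50469 libraries: HBB averaged 64.3 CPM against 1.36 CPM in DMSO, 5 of 6 tested erythroid genes rose, and the summed erythroid level was 107, 205 and 121 CPM against 17, 24.5 and 21.8 CPM. Their part in the 96 h results was not tested.

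MEIS1 fell in all 3 experiments, with log2 fold changes of -4.57 at 48 h, -4.54 at 96 h and -4.19 in MV4;11. MEF2C (-3.14, -3.04 and -5.95), PBX3 (-2.28, -2.71 and -2.80) and SATB1 (-1.80, -1.55 and -2.81) fell in all 3 as well. Of the raised genes, CYBB rose by 3.14, 5.40 and 5.05, SLPI by 3.35, 2.69 and 3.20, CLEC12A by 3.08, 2.08 and 3.00, and PRAM1 by 2.40, 3.24 and 2.64. Each of these 8 genes passed the edgeR test in all 3 experiments.

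Others did not pass in the same direction in all 3. SHOX2 fell in MOLM13 at 48 h (-2.60) and did not pass at 96 h (-0.22) or in MV4;11 (0.33). CDK6 fell at 48 h in both lines (-1.25 and -0.96) and not at 96 h (-0.02). PITX1 rose in MOLM13 at 48 h and at 96 h (3.42 and 1.74) and fell in MV4;11 (-0.88), where its DMSO mean was 612 CPM. MPO rose in MOLM13 (2.29 and 2.80) and did not pass in MV4;11 (0.37), and SENP6 fell at 48 h in MOLM13 and rose in MV4;11 (0.41). HOXA9 fell at 48 h in MOLM13 and did not pass at 96 h (-2.87) or in MV4;11 (-0.23). At 96 h HOXA9 was near the floor, with means of 3.27 CPM in DMSO and 0.383 CPM with VTP50469. Its libraries there were lower without overlap (edgeR adjusted p = 0.0737), while in MV4;11 they overlapped. LAMP5, which did not pass at 48 h, fell at 96 h (-2.05) and in MV4;11 (-0.31). These differences between experiments were not tested.

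The list counts that follow are to be read against 9.58% raised and 14.6% lowered among all genes at 96 h, and 10.6% and 10.4% in MV4;11. MLL fusion targets had 8 of 22 lowered and 1 raised at 96 h, and 12 of 19 lowered and 1 raised in MV4;11. Later granule genes had 12 of 16 raised and none lowered at 96 h, and 6 of 7 raised and none lowered in MV4;11. As at 48 h, a gene near 0 in DMSO enters this list only if it is high in other libraries. The later granule counts are therefore given as a description. Proliferation genes, of which 2 rose and 2 fell at 48 h in MOLM13, had none raised and 12 of 27 lowered at 96 h (median -1.23), and none raised and 8 of 28 lowered in MV4;11 (median -0.26). ATF4 response genes had 9 of 17 lowered and none raised, and 9 of 18 lowered and 1 raised. Lysosomal genes had 4 raised and 4 lowered of 36 at 96 h, near the background, and 21 raised and none lowered of 36 in MV4;11. Class II MHC genes, none of which was called in MOLM13, had 5 of 6 raised in MV4;11.

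**Figure D5:**
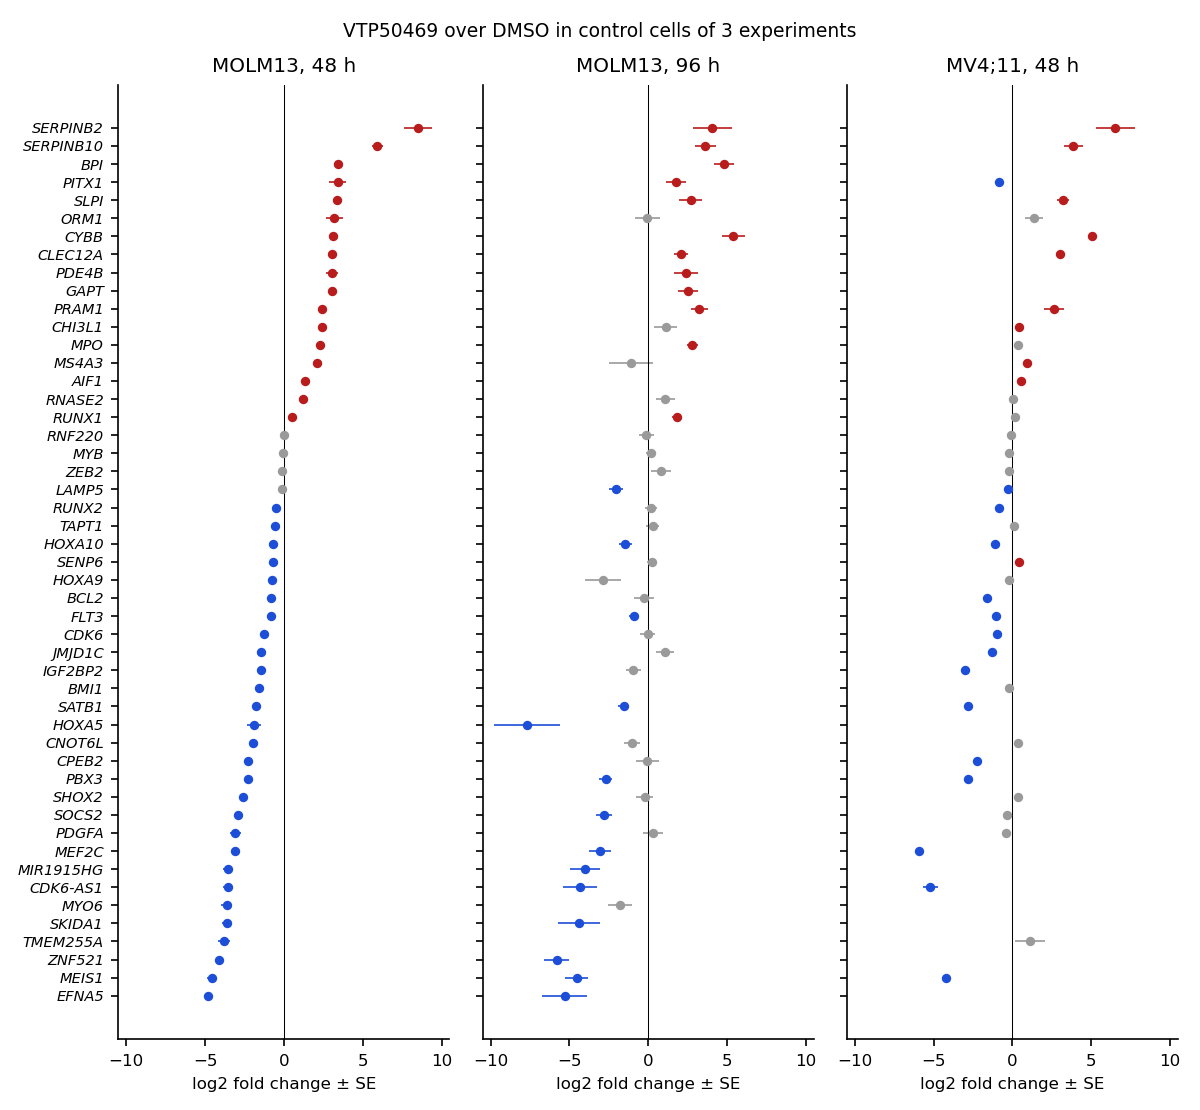
Points are fitted log2 fold changes, VTP50469 over DMSO, and bars their SE for 49 of the 50 named genes in MOLM13 at 48 h, MOLM13 at 96 h and MV4;11 at 48 h; red rose, blue fell, grey did not pass the test and a gap means not tested. MEIS1, MEF2C and PBX3 are blue and CYBB, SLPI and CLEC12A red in all 3 panels, while PITX1 is red in both MOLM13 panels and blue in that of MV4;11 and SHOX2 is blue only in the first panel, MOLM13 at 48 h.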

How the data were processed

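Gene counts were used as deposited by the authors, who per the labels and methods prepared 3′ end libraries, demultiplexed them with bcl2fastq and aligned them with STAR to hg38. The strand setting and annotation release are not given in the sources used here. Rows that name no gene (36.3 to 48.6% of reads in the 27 knockout libraries) entered neither the library sizes nor any test.

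Genes that reached 2 CPM in 2 or more libraries were tested with edgeR 4.0.16 (quasi-likelihood test, TMM scaling, Benjamini-Hochberg adjustment, threshold 0.05) in R 4.3.3, with 1 coefficient per group over 27 libraries. The washout and MV4;11 tables were fitted separately (24 and 18 libraries). Another 30 columns for MV4;11 and 8 for K562 could not be used. DESeq2 1.42.0, other scalings, a replicate block and leaving out each library were alternatives. The script was tested on simulated data.

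Gene symbols and promoters came from GENCODE v44, and 727 tested identifiers had no symbol. Named genes were the MLL fusion targets, the 10 called genes of largest fold change in each direction with a mean of 5 CPM or more in the higher group and no overlap between groups, the 10 of smallest adjusted p in each direction, and list members needed to describe a list. Members and lists were chosen with earlier results of these data known. Intervals are Wilson intervals. Some genes and a promoter sequence are not reported here, and list counts include them.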

Additional observations from a re-analysis of the deposited data

Results flagged for a closer look

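For 10 of the 50 named genes the response to VTP50469 differed between control cells and cells with a PCGF1 or BCOR guide, by the interaction term of the edgeR fit (7 genes for PCGF1, 5 for BCOR). The control side of each difference is the comparison of the report, so these values are not independent of it.

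MEF2C fell by 3.14 on the log2 scale in control cells. Its log2 fold change was -2.21 in PCGF1 cells (difference 0.92, edgeR adjusted p = 0.000511) and -2.09 in BCOR cells (difference 1.04, edgeR adjusted p = 0.000142). SLPI rose by 3.35 in control cells, by 1.88 in PCGF1 cells (difference -1.47, edgeR adjusted p = 9.42e-07) and by 2.22 in BCOR cells (difference -1.13, edgeR adjusted p = 0.000228). Its mean DMSO level was 8.06 CPM in control, 42.7 CPM in PCGF1 and 15.6 CPM in BCOR cells. With VTP50469 SLPI averaged 82.6, 157 and 72.7 CPM.

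In PCGF1 cells CHI3L1 rose by 1.11 against 2.39 in control cells (difference -1.29, edgeR adjusted p = 9.42e-07), and RNASE2 by 0.31 against 1.21 (difference -0.90, edgeR adjusted p = 9.42e-07). PDGFA had a log2 fold change of -0.68 against -3.09 (difference 2.41, edgeR adjusted p = 0.00566). BPI rose by 1.58 against 3.46 (difference -1.88, edgeR adjusted p = 0.0233), and MYO6 had a log2 fold change of -1.88 against -3.64 (difference 1.76, edgeR adjusted p = 0.049). Without DMSO replicate 2 the last 2 did not pass (BPI -1.58, edgeR adjusted p = 0.0789, and MYO6 1.49, edgeR adjusted p = 0.122). Mean DMSO levels in PCGF1 and control cells were 320 and 85.9 CPM for CHI3L1 and 1087 and 488 CPM for RNASE2. They were 18.4 and 9.56 CPM for PDGFA, 5.45 and 1.88 CPM for BPI, and 66.9 and 7.17 CPM for MYO6. With VTP50469, CHI3L1 was 689 and 451 CPM, RNASE2 1349 and 1130 CPM, and BPI 16.4 and 21.2 CPM. PDGFA was 11.6 and 1.11 CPM, and MYO6 18.2 and 0.545 CPM.

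In BCOR cells PRAM1 rose by 1.36 against 2.40 in control cells (difference -1.04, edgeR adjusted p = 0.00547). BMI1 had a log2 fold change of -0.81 against -1.60 (difference 0.79, edgeR adjusted p = 0.00565), and SKIDA1 of -1.42 against -3.64 (difference 2.22, edgeR adjusted p = 0.00861). Mean DMSO levels in BCOR and control cells were 16.3 and 10.8 CPM for PRAM1, 157 and 137 CPM for BMI1, and 20.5 and 14.1 CPM for SKIDA1.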

How the results depend on the processing

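When only the 6 libraries compared were fitted, 707 genes were called in place of 2000 (428 raised, 279 lowered), in a fit with fewer residual degrees of freedom by construction. Counts of DMSO replicate 2 differed from DMSO replicates 1 and 3 by a chi-square per degree of freedom of 23.2 and 26.4. Other pairs within the 2 groups gave 4.28 to 5.42. The part of DMSO replicate 2 in the lower count was not tested. An adjusted p under 0.1 with a log2 fold change over 0.5, the thresholds of the study, gave 793 raised and 620 lowered. Leaving out 1 library gave 1457 to 2133 genes, 787 to 1013 raised and 670 to 1120 lowered, with 670 lowered without VTP50469 replicate 3. Other settings gave 1885 to 2034 genes (library size scaling 2034, DESeq2 size factors 1993, no filter 1885, DESeq2 1922). For the named genes, 638 of the results under alternatives stayed on the same side of the threshold and 11 lost the call, all of RUNX2, TAPT1 and HOXA10, and none reversed.

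Same-numbered VTP50469 and DMSO libraries had deviations correlated at 0.03, 0.14 and 0.12, against -0.13 to 0.05 for differently numbered ones. Between VTP50469 and SGC0946 the values were 0.09, 0.13 and 0.11, against -0.08 to -0.02. Weak sharing by replicate number is thus present, its source was not tested, and the main fit did not pair libraries. With the replicate block 2358 genes were called (1142 raised, 1216 lowered), and 205 between VTP50469 and SGC0946. Between VTP50469 and SGC0946, no filter on low counts gave 78 genes higher with VTP50469 in place of 47. Leaving out 1 library gave 109 to 129 genes, 24 to 30 higher and 80 to 99 lower.

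At 96 h library size scaling gave 2318 raised and 820 lowered, and a fit of only the 6 libraries gave 2308 raised. Leaving out 1 library gave 1337 to 2812 genes, 535 to 1174 raised and 643 to 1638 lowered. In MV4;11 library size scaling gave 4460 genes, 451 raised and 4009 lowered, and the cause was not tested. Among promoters of genes changed more than 2-fold, the raised had under 5 CG in 33.6%, TATAAA in 13.44%, TTGCNNAA in 10.28%, CACGTG in 6.324% and CCAAT in 26.88%, and the lowered had under 5 CG in 11.34%, TATAAA in 10.82%, CACGTG in 7.732% and CCAAT in 28.35%. Depth limits genes under about 2 CPM, which were not tested.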

Other observations

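Protein-coding genes made up most of the calls, with 892 raised and 941 lowered of 10328 tested (8.64% and 9.11%). Of 771 long non-coding RNAs 56 rose and 32 fell (7.26% and 4.15%), and of 685 pseudogenes 19 rose and 20 fell (2.77% and 2.92%). Beside SERPINB2 and ANKRD22, which had no read in DMSO, genes that lost all reads with VTP50469 included DUSP8, a MAP kinase phosphatase, with 27 reads over the DMSO libraries (at least 8.98-fold lower, against 3 reads over the VTP50469 group), and C3orf80, with 18 reads (at least 5.99-fold lower). ANGPT1, a ligand of the TIE2 receptor, went from 39 reads to 3. SOCS2-AS1, which lies antisense to SOCS2, went from 46 reads to 3, and with the strand of counting not given its reads may include some of SOCS2. These genes were chosen after their values were seen.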
